A study of Mus musculus with 11 samples.

Results

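The genes described here are 31 genes of cholesterol and fatty acid synthesis and its control, taken as a fixed list of symbols. A probe belonged to a gene if the platform annotation gave that symbol. A gene was tested if a probe had a detection p under 0.05 on at least 5 of the 11 arrays. Of the 31 genes, 27 had at least 1 probe and 24 were tested, among 9139 tested genes of 19057 named on the array. Acat2, Hmgcs1, Fdft1 and Nr1h2 had no probe under their symbols and were not analysed here. Abca1, Acaca and Scd1 had 1 probe each, which was above background on 0 of the 11 arrays. The 27 genes had 45 probes, of which 35 were tested.

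The samples were mouse CD4 T cells with the T cell receptor β chain, sorted out of colonic lamina propria, the tissue layer under the gut epithelium. The Il23r knockout group (5 samples) held T cells lacking the interleukin 23 receptor gene, and the WT group (6 samples) held wild-type T cells, all of strain C57BL/6. Both genotypes had been transferred together as naive cells into Rag1-/- recipients, which lack T and B cells of their own, and the cells were separated by congenic markers once clinical signs of colitis appeared. The transferred cells were thus the source of T cells in all 11 samples, and no group came from a healthy gut or without transfer. Whether each sample stands for its own recipient mouse is not in the labels, so a p-value here covers only how these samples scatter, and that scatter can be technical. RNA was taken directly after the sort and read on an Illumina bead array. Each array had 17309 to 18440 of its 45281 probes above background, with a median raw intensity of 107.6 to 176.7. The probe of Il23r was above background on 0 of the 11 arrays, so it gives no check of the labels. All 11 measured T cell identity genes were above background, with log2 differences (knockout minus WT) of -0.11, 0.05 and 0.02 for the most abundant, Thy1, Cd3g and Cd3d. Of the 11 genes 7 were negative and 4 positive, with a median of -0.06 and 0 at an adjusted p under 0.05 (limma). At an unadjusted p under 0.05 there were 2, Cd247 (-0.44) and Cd2 (-0.18), where 18.0% of all tested genes were. Cd4 was at -0.22.

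Cholesterol is made from acetyl-CoA through mevalonate, the isoprenoids, squalene and lanosterol. The transcription factors SREBP-1 and SREBP-2, encoded by Srebf1 and Srebf2, switch on most enzymes of this route and of fatty acid synthesis. When sterols are low, the escort protein SCAP carries the SREBPs to the Golgi for cleavage, and when sterols are high, INSIG proteins hold SCAP in the endoplasmic reticulum. T cells raise sterol and fatty acid synthesis when they divide, and sterol intermediates of the route can act as ligands of the receptor RORγt, the lineage factor of T cells that make interleukin 17.

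SREBPs act in promoters together with NF-Y, a factor that binds the CCAAT box, so the promoters of the members were examined from the sequences of RefSeq, build GRCm38.p6. These windows run from 250 bases before to 50 bases after a gene's start, and 23 of the 31 genes matched by symbol. Of the 12 genes with a window among the enzymes from Acat2 to Dhcr7, 11 held CCAAT on either strand at 1 listed start or more (91.7%), against 43.1% of the 7472 promoter genes tested on the arrays and 41.1% of all 27025 promoter genes. All 12 held the GC box GGGCGG on either strand, against 68.9% of the tested and 38.2% of all promoter genes. Over all 23 genes with a window, 16 held CCAAT (69.6%) and 19 the GC box (82.6%). The E-box CACGTG, which SREBPs can also bind, was found for 6 of the 23 genes (26.1%), against 12.0% of the tested and 8.09% of all promoter genes. The core of the sterol regulatory element, TCACNCCAC on either strand, was found in 1 of the 23 genes, Hmgcs1 (4.35%), against 1.28% of the tested and 1.44% of all promoter genes. Of the 5 fatty acid genes with a window, 2 held CCAAT and 2 held the GC box. Of the 2 genes of sterol transport and oxysterol response with a window, 0 held CCAAT. Matches of different motifs may overlap, and a match is a run of letters, not a shown binding site.

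**Figure D1:**
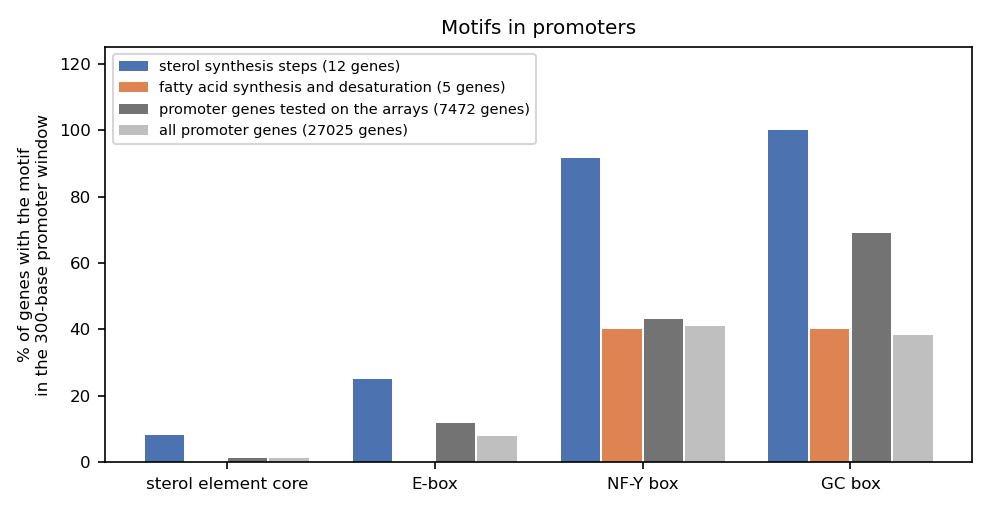
Share of genes (%) whose promoter window of 300 bases holds each of 4 motifs on either strand, for the sterol synthesis enzymes, the fatty acid genes, the promoter genes tested on the arrays and all promoter genes. The NF-Y box CCAAT was found in 91.7% of the sterol synthesis enzymes and in 43.1% of the tested promoter genes.

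The 4 promoters printed here belong to Idi1, Insig1 and Cyp51, each lowest in WT sample 2, and to Dhcr7, the member gene with the smallest p. They were chosen, after the windows were seen, to show the box. Scap and Sqle were also lowest in WT sample 2, and the 2 windows of Scap held 0 CCAAT boxes. Capitals mark CCAAT or its reverse complement, and each sequence reads 5′ to 3′ on the gene's strand. They lie at chr13:8885356-8885655 on the plus strand (Idi1), chr5:28071162-28071461 on the plus strand (Insig1), chr5:4104648-4104947 on the minus strand (Cyp51) and chr7:143829964-143830263 on the plus strand (Dhcr7, 1 of 3 listed starts).
Idi1: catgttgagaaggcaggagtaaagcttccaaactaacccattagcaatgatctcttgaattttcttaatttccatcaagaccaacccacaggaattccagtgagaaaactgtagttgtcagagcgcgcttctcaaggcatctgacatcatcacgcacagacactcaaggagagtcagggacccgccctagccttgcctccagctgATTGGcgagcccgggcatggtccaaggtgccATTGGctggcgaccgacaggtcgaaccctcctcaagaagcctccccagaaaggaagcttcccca
Insig1: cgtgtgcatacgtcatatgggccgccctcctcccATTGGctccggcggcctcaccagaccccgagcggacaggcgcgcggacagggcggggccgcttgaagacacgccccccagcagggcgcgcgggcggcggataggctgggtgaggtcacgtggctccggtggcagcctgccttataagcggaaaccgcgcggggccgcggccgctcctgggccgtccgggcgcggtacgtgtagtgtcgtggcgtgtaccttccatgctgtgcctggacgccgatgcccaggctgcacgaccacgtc
Cyp51: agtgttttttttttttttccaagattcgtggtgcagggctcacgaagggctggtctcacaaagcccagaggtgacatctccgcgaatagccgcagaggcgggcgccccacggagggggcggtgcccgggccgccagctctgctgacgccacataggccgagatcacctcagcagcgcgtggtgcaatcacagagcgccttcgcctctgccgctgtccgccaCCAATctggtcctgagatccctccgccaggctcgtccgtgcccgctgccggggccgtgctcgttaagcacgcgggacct
Dhcr7: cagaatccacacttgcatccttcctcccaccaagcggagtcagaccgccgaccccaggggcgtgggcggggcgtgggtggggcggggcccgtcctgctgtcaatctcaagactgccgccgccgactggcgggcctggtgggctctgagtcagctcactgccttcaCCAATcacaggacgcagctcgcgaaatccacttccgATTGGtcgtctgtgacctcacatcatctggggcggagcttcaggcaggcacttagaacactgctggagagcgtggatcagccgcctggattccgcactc
The Idi1 window held a pair of CCAAT boxes, first at 45 bases before the start, and the Dhcr7 window another pair, first at 85 bases before it. Insig1 and Cyp51 had 1 box each, at 216 and 29 bases before the start.

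No member gene, read by its brightest tested probe, passed the test between Il23r knockout and WT cells. Each gene was represented by its brightest tested probe, and genotypes were compared by limma on log2 normalised intensity, with Benjamini-Hochberg adjustment over all 18003 tested probes. Of the 24 member genes, 0 passed an adjusted p under 0.05, as did 1.94% of all 9139 tested genes, and the lowest adjusted p was 0.149. At an unadjusted p under 0.05 there was 1 gene, Dhcr7, against 18.0% of all tested genes. For 0 of the 24 genes were the genotypes free of overlap, against 3.58% of all tested genes. Differences between the genotypes (log2, knockout minus WT) ran from -0.35 for Dhcr7 to 0.22 for Cyp51. The 95% interval lay within a 2-fold change for all 24 genes, where 98.0% of all tested genes did. Within a 1.5-fold change it lay for 18 of the 24, where 7747 of all 9139 tested genes did.

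**Figure D2:**
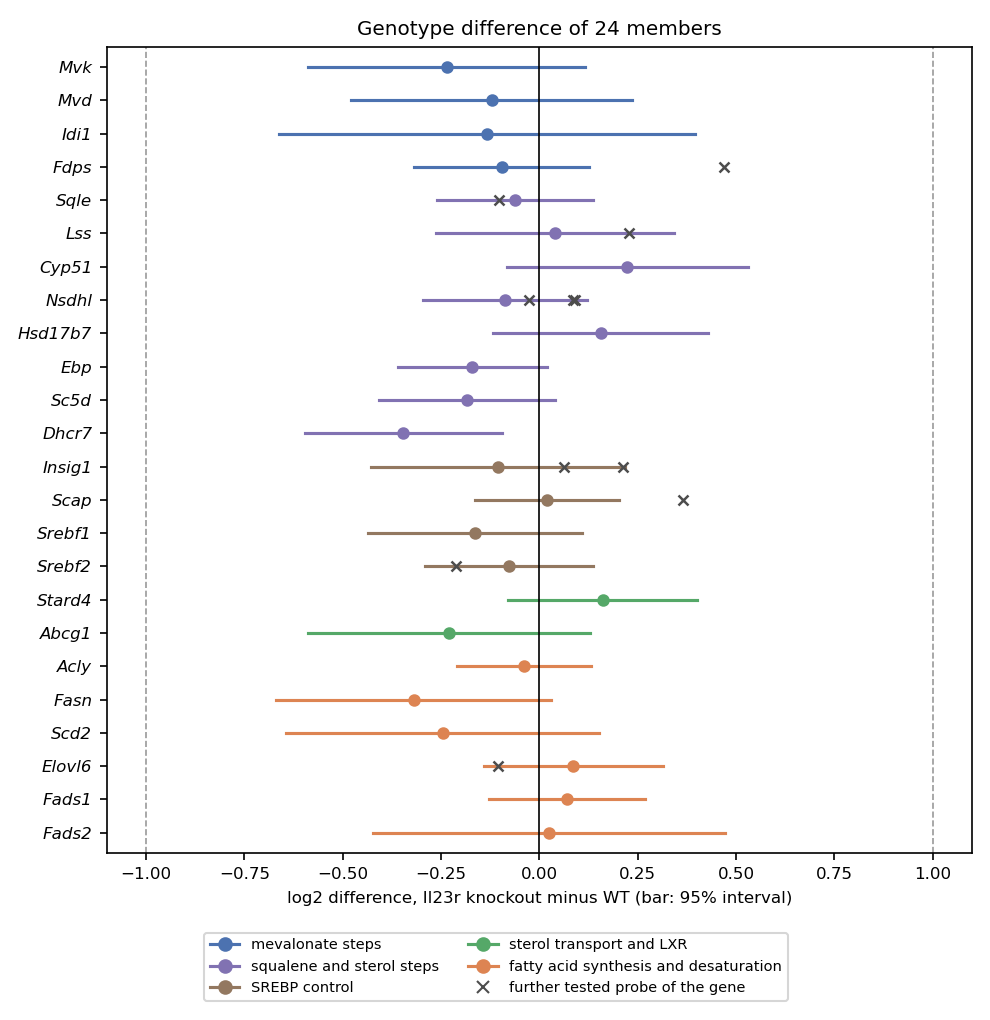
Log2 difference, Il23r knockout minus WT, of the 24 tested member genes (points, with 95% intervals as bars, coloured by role) and of their further tested probes (crosses). All 24 intervals lie between the dashed lines of a 2-fold change, as did 98.0% of those of all tested genes, and the second probe of Fdps stands at 0.47.

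Of the 18 tested sterol genes, 13 had negative differences, with a median of -0.10, against 48.9% negative and a median of 0.01 over all tested genes. Of the 6 tested fatty acid genes 3 were negative, and their median was -0.01. These counts are descriptions and were not tested. In bulk RNA, fewer cells that express a gene and less RNA per cell cannot be told apart.

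The 4 tested member enzymes of the mevalonate steps all had negative differences, with a median of -0.13, and 0 passed the test. Pmvk, a further enzyme of these steps, was counted with the other sterol genes and stood at 0.03 ± 0.12 (SE, limma adjusted p = 0.922). The negative sign of the 4 members did not hold throughout. Idi1 was at 0.02 without WT sample 6 and with the replicate number as a block, and Fdps at 0.19 as the mean of its 2 probes. Mvk, the mevalonate kinase, had log2 values of 6.79, 6.40, 6.30, 6.10 and 6.34 in knockout samples 1 to 5, against a lowest value of 6.17, a median of 6.54 and a highest of 7.11 in WT samples. Its difference was -0.24 ± 0.16 (SE, limma adjusted p = 0.474). Knockout samples 2 to 5 lay under the WT median, but sample 1 lay above it and the groups overlapped.

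Mvd, the diphosphomevalonate decarboxylase, averaged 7.72 ± 0.20 (SD, n = 5) in knockout and 7.84 ± 0.38 (SD, n = 6) in WT cells. Idi1, which interconverts the isoprenoid units, had 7.86, 7.98, 7.92, 8.52 and 8.74 in knockout samples 1 to 5, against 7.60, 8.20 and 9.11 as the lowest, median and highest WT value. Both genotypes spanned most of the same range, and the difference was -0.13 ± 0.25 (SE, limma adjusted p = 0.819). Its spread within a genotype (SD 0.48) exceeded the median over all tested genes (0.18), as did that of 14 of the 24 members.

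Fdps, the farnesyl diphosphate synthase, was the only member with a probe that passed, and its 2 probes differed. On the brighter probe (ILMN_1225730) the values were 11.00, 10.72, 10.70, 10.76 and 11.00 in knockout samples 1 to 5, against 10.69, 10.93 and 11.21 as the lowest, median and highest WT value. That probe was at -0.10 ± 0.10 (SE, limma adjusted p = 0.668), with overlapping groups. The dimmer probe (ILMN_1232741) read 6.54, 6.21, 6.38, 6.38 and 6.20 in knockout samples 1 to 5, against 5.65, 5.82 and 6.12 in WT samples (lowest, median, highest). All 5 knockout samples lay above all 6 WT samples, and the probe was above background on 5 of 5 knockout and 4 of 6 WT arrays.

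The dimmer Fdps probe rose by 0.47 ± 0.11 (SE, 95% interval 0.24 to 0.70, limma adjusted p = 0.0412). It was the 1 call among the 35 member probes, as against 1.78% of all 18003 tested probes, and 3 member probes had an unadjusted p under 0.05, as against 17.6% of all. The call was lost when any 1 of knockout samples 1 to 5 or of WT samples 1, 4, 5 and 6 was left out (adjusted p from 0.0548 to 0.101), and on the authors' log2 values (0.17, adjusted p = 0.178). Which part of the transcript each probe reads was not examined here.

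**Figure D3:**
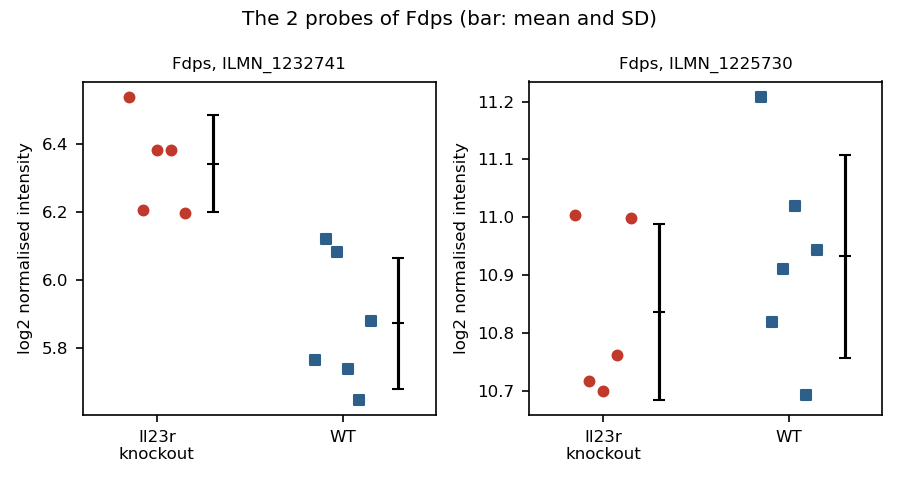
Log2 normalised intensity of the 2 probes of Fdps in each Il23r knockout sample (circles, 5) and WT sample (squares, 6), with the mean and SD beside them. The knockout samples lie above all WT samples on the dimmer probe (left), and the groups overlap on the brighter probe (right).

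Among the 8 tested enzymes from squalene to cholesterol, 5 were negative and 3 positive (median -0.07), and 0 passed. Dhcr7, which reduces 7-dehydrocholesterol to cholesterol in the last step, had 6.71, 6.34, 6.45, 6.11 and 6.73 in knockout samples 1 to 5, against 6.64, 6.81 and 6.96 as the lowest, median and highest WT value. Knockout samples 2 to 4 lay below all WT samples, while samples 1 and 5 lay within the WT range. The difference was -0.35 ± 0.12 (SE, 95% interval -0.60 to -0.10, limma adjusted p = 0.149), and in the fits that left out 1 array it stayed between -0.41 and -0.26. It was -0.18 on the authors' log2 values and -0.16 without background correction.

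Ebp, the sterol isomerase, averaged 10.81 ± 0.10 (SD, n = 5) in knockout and 10.99 ± 0.14 (SD, n = 6) in WT cells, a difference of -0.17 ± 0.09 (SE, limma adjusted p = 0.333). Sc5d, the lathosterol desaturase, was at -0.18 ± 0.10 (SE), but was above background on 2 of 5 knockout and 4 of 6 WT arrays. Both are neighbours of Dhcr7 at the end of the route, and neither passed.

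Cyp51, the lanosterol demethylase, lay on the other side of 0. It had 9.76, 9.81, 9.58, 9.89 and 10.24 in knockout samples 1 to 5, against 9.29, 9.64 and 10.06 as the lowest, median and highest WT value. Knockout sample 5 was the highest of the 11, and the other knockout samples lay within the WT range. The difference was 0.22 ± 0.14 (SE, limma adjusted p = 0.434).

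Hsd17b7, the 3-ketosteroid reductase, was at 0.16 ± 0.13 (SE), and Lss, which closes the sterol ring, at 0.04 ± 0.14 (SE) on its brightest probe and 0.23 ± 0.11 (SE) on another. Sqle, the squalene epoxidase, a rate-limiting step, averaged 10.51 ± 0.08 (SD, n = 5) in knockout and 10.57 ± 0.17 (SD, n = 6) in WT cells, and its second tested probe was at -0.10. The 4 probes of Nsdhl, a sterol dehydrogenase in the removal of methyl groups, stood at -0.09, -0.03, 0.08 and 0.09. The tested probes of Lss and Sqle had 1 sign each in the main fit, and those of Nsdhl had both. The sign of the brightest Lss probe did not hold, at -0.02 to 0.12 when 1 array was left out. The Lss probe at 0.23 was above background on 5 of 5 knockout and 4 of 6 WT arrays.

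The 4 tested genes of SREBP control had a median of -0.09. Srebf2, the main activator of sterol genes, averaged 10.25 ± 0.17 (SD, n = 5) in knockout and 10.32 ± 0.14 (SD, n = 6) in WT cells, and its other probe was at -0.21 ± 0.12 (SE, limma adjusted p = 0.383). Srebf1 had 6.13, 6.03, 6.17, 5.96 and 5.99 in knockout samples 1 to 5, against 5.89, 6.19 and 6.72 in WT samples (lowest, median, highest), with WT sample 1 as the highest. Its difference was -0.16 ± 0.13 (SE, limma adjusted p = 0.521), and its second probe was above background on no array.

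Insig1 is both a brake on the SREBPs and one of their targets. On its brightest probe it had 9.63, 9.75, 9.95, 9.92 and 10.30 in knockout samples 1 to 5, against 9.50, 10.09 and 10.30 as the lowest, median and highest WT value. The difference was -0.11 ± 0.15 (SE, limma adjusted p = 0.754), while its other tested probes were at 0.06 and 0.21. Scap was at 0.02 ± 0.09 (SE) on its brightest probe. Its dimmer probe averaged 7.30 ± 0.15 (SD, n = 5) in knockout and 6.94 ± 0.38 (SD, n = 6) in WT cells, a difference of 0.36 ± 0.16 (SE, limma adjusted p = 0.262).

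Of the genes for sterol transport and the response to oxysterols, Stard4 and Abcg1 were tested. Stard4, which moves cholesterol between membranes, had 10.39, 10.44, 10.39, 10.70 and 10.69 in knockout samples 1 to 5, against 10.02, 10.41 and 10.59 in WT samples (lowest, median, highest). Knockout samples 4 and 5 lay above all WT samples, and the difference was 0.16 ± 0.11 (SE, limma adjusted p = 0.472). Abcg1, a cholesterol exporter switched on by the liver X receptors, averaged 6.36 ± 0.30 (SD, n = 5) in knockout and 6.59 ± 0.32 (SD, n = 6) in WT cells, a difference of -0.23 ± 0.17 (SE, limma adjusted p = 0.493).

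Fatty acid genes split evenly, 3 negative and 3 positive, with 0 past the test. Acly, which makes cytosolic acetyl-CoA from citrate, averaged 12.79 ± 0.11 (SD, n = 5) in knockout and 12.83 ± 0.08 (SD, n = 6) in WT cells, and its 95% interval of -0.21 to 0.13 was the narrowest of the 24. Fasn, the fatty acid synthase, had 5.48, 5.83, 6.20, 6.00 and 6.11 in knockout samples 1 to 5, against 5.88, 6.22 and 6.79 as the lowest, median and highest WT value. It was above background on 4 of 5 knockout and 6 of 6 WT arrays. The difference was -0.32 ± 0.16 (SE, limma adjusted p = 0.328).

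Scd2, a stearoyl-CoA desaturase, was at -0.25 ± 0.19 (SE) and above background on 3 of 5 knockout and 5 of 6 WT arrays. Elovl6, which extends palmitate, was at 0.09 ± 0.11 (SE) on its brightest probe and at -0.11 ± 0.20 (SE) on the other. The desaturases of polyunsaturated fatty acids stood at 0.07 ± 0.09 (SE) for Fads1 and 0.02 ± 0.21 (SE) for Fads2, the second above background on 2 of 5 knockout and 4 of 6 WT arrays.

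**Figure D4:**
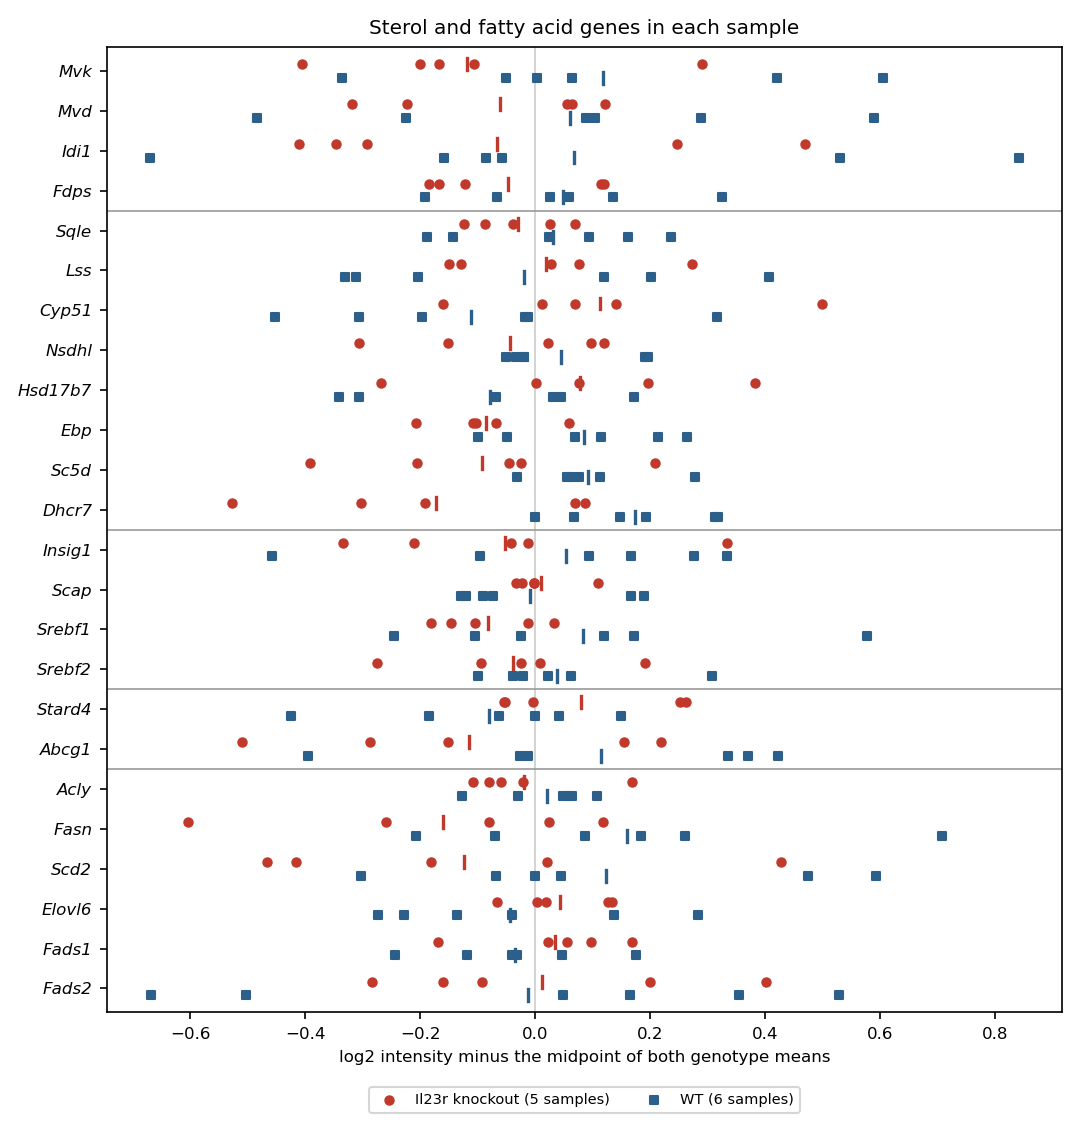
Log2 normalised intensity of each member gene in each Il23r knockout sample (circles, upper line of a gene) and WT sample (squares, lower line), as the deviation from the midpoint of both genotype means, with each mean as a tick. The genotypes overlap in all 24 genes, and Idi1 spreads most widely, over 1.51 log2 units.

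Samples of the same genotype differed from one another in the sterol genes by more than the genotypes did. The mean deviation over the 18 sterol genes was -0.01, -0.11, -0.10, -0.08 and 0.10 in knockout samples 1 to 5, against 0.18, -0.07, 0.07, 0.04, -0.09 and 0.11 in WT samples 1 to 6. It averaged -0.04 ± 0.09 (SD, n = 5) in knockout and 0.04 ± 0.11 (SD, n = 6) in WT cells, so that the gap between the genotypes was smaller than 1 SD. WT sample 1 was the highest of the 11 in 7 of the 18 genes and WT sample 6 in 4, while WT sample 5 was the lowest in 6, WT sample 2 in 5 and knockout sample 4 in 4.

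Cell cycle genes had a median difference of -0.28 over 22 tested genes, with 0 past the test. Of the 22, 16 were negative and 6 positive, and the differences ran from -0.58 to 0.20. At an unadjusted p under 0.05 there were 9 of the 22, where 18.0% of all tested genes were. Their mean deviation was 0.23, 0.08, -0.34, -0.28 and -0.26 in knockout samples 1 to 5, against 0.03, 0.18, 0.26, 0.27, 0.17 and -0.23 in WT samples 1 to 6. Knockout samples 3 and 4 were low in both lists and WT samples 1, 3 and 4 high in both. The other samples had opposite signs in the 2 lists. Knockout sample 5 and WT sample 6 were low in cell cycle genes and high in sterol genes. Knockout samples 1 and 2 and WT samples 2 and 5 were high in cell cycle genes and low in sterol genes. The part of the cell cycle genes in the values of the members was not tested. The most abundant cell cycle genes by probe were Mcm4 (0.09), Mcm6 (-0.10) and Mcm5 (0.02), all subunits of the replicative helicase, given as log2 differences.

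**Figure D5:**
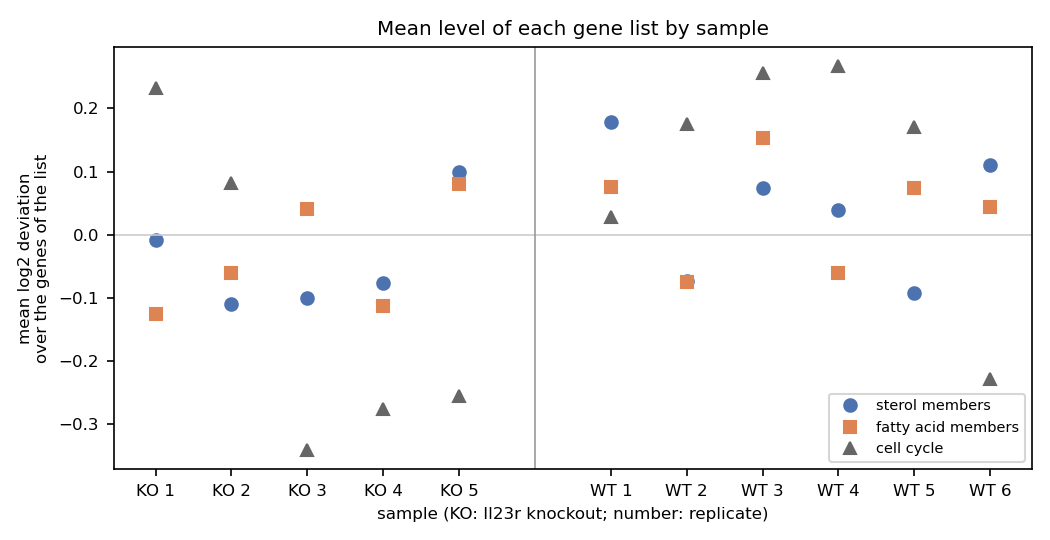
Mean log2 deviation over the 18 sterol, 6 fatty acid and 22 cell cycle genes in each Il23r knockout sample (left) and WT sample (right). Knockout sample 5 stands at 0.10 and WT sample 6 at 0.11 for the sterol genes, while both lie at -0.23 or lower for the cell cycle genes. Knockout samples 3 and 4 lie below 0 and WT samples 1, 3 and 4 above 0 for both lists of sterol and cell cycle genes. Knockout samples 1 and 2 and WT samples 2 and 5 lie below 0 for the sterol genes and above 0 for the cell cycle genes.

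Markers of other cells were measured beside these genes. Of 17 myeloid markers with a probe 14 were above background, with a summed linear level of 8165 to 11420 in knockout and 5374 to 14887 in WT samples and a median difference of 0.25 (0 past the test). Of these 14 myeloid markers, 11 had positive and 3 negative differences. The most abundant were Lyz1 (0.44), Ctss (-0.18) and Cd74 (0.23). The other 2 negative ones were the neutrophil genes S100a8 and S100a9, at -0.79 and -0.63. Above background were 4 of 9 epithelial, 2 of 8 stromal or endothelial and 1 of 5 B cell markers, with 0 past the test. Cdh1, an epithelial cadherin, averaged 8.75 ± 0.41 (SD, n = 5) in knockout and 7.93 ± 0.39 (SD, n = 6) in WT cells, a difference of 0.82 (limma adjusted p = 0.071). The epithelial keratin gene Krt18 averaged 5.87 ± 0.36 (SD, n = 5) in knockout and 6.63 ± 0.54 (SD, n = 6) in WT cells, a difference of -0.75 (limma adjusted p = 0.133). Krt8 was at -0.21 and Muc2 at 0.00, the stromal and endothelial genes Dcn and Pecam1 at -0.59 and -0.13, and the B cell gene Cd79b at 0.06. The part of such cells in the values of the members was not tested.

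Further genes of the same metabolism were read from 4 lists. Of 72 listed genes 47 were tested, and 1 passed (Acadl, which fell), where 1.94% of all tested genes did. At an unadjusted p under 0.05 there were 8 of the 47, where 18.0% of all tested genes were. Both counts lie near the background and show nothing particular to these lists. Of the 13 tested genes of sterol synthesis, uptake and sensing, 10 were positive and 0 passed (median 0.05). Msmo1, a sterol methyl oxidase of the same route, had 10.59, 10.43, 10.71, 10.87 and 10.93 in knockout samples 1 to 5, against 9.80, 10.42 and 10.68 in WT samples (lowest, median, highest). All 5 knockout samples lay above the WT median, 3 of them above all WT samples, and the difference was 0.39 ± 0.15 (SE, limma adjusted p = 0.202). Erlin1 (0.45), which takes part in sterol sensing at the endoplasmic reticulum, the lysosomal cholesterol transporter gene Npc1 (0.14 on its brightest probe, with others at 0.13, -0.06 and -0.10) and the SREBP protease gene Mbtps2 (0.18) did not pass.

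Of 15 tested genes of fatty acid and lipid synthesis 11 were negative, with a median of -0.08, and 0 passed. Dgat2, which makes triglycerides, averaged 6.79 ± 0.58 (SD, n = 5) in knockout and 5.94 ± 0.55 (SD, n = 6) in WT cells, a difference of 0.86 ± 0.29 (SE, limma adjusted p = 0.147). Dgat2 passed with the replicate number as a block (0.97, adjusted p = 0.0309), and its difference was 0.38 on the authors' log2 values. Its 1 tested probe is dim, with 5.17, 5.59 and 5.62 in WT samples 1, 3 and 4. On those arrays the lowest values above background were 5.66, 5.70 and 5.82. Acss2, which activates acetate, was at 0.28 on its brightest probe and -0.14 on the other (0.07 as their mean), the phospholipid remodelling enzyme gene Lpcat3 at -0.22 and the acyl-CoA synthetase gene Acsl3 at -0.23.

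The 1 further gene that passed acts in the breakdown of fatty acids. Acadl, the long-chain acyl-CoA dehydrogenase of mitochondrial oxidation, had 9.77, 9.64, 9.35, 9.53 and 9.15 in knockout samples 1 to 5, against 9.88, 10.20 and 10.60 as the lowest, median and highest WT value. All 5 knockout samples lay below all 6 WT samples. Acadl fell by 0.70 on the log2 scale (SE 0.14, limma adjusted p = 0.0281), and its other tested probes were at -0.53 and -0.31 without passing. The call was lost without knockout sample 3, 4 or 5 or WT sample 1, 3 or 5 (adjusted p up to 0.0801) and with arrays scaled to equal medians (adjusted p = 0.0913), without the filter on dim probes (0.0582) and in the fit blocked by replicate number (0.0575).

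The other 13 tested oxidation genes did not pass, and the list of 14 had a median of -0.04. Hadha, a subunit of the trifunctional enzyme of the same route, was at 0.26 ± 0.09 (SE), Acaa2, the thiolase, at -0.26 ± 0.10 (SE) and Hadh at -0.27 ± 0.13 (SE), so that the list went both ways.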

How the data were processed

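RNA of 11 samples was labelled with biotin and hybridised to a 1-colour Illumina mouse bead array, per the labels. The authors deposited the linear intensity of each probe, with no background subtraction visible. The submitters' processing notes name GenomeStudio 1.6.0. The authors also deposited a detection score, a fraction between 0 and 1. It rose with intensity on every array (Spearman at least 0.984) and was therefore taken as 1 minus a detection p. The log2 values of the series table, deposited by the authors, equal log2 intensity minus the 75th percentile of the array, within 0.000339. That match joined the rows to probe names. Of 45281 probes, 34885 carried a single gene symbol in the platform annotation, 18 carried several (not named here) and 10378 were absent from it.

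Background was corrected and arrays were quantile-normalised by the neqc function (limma 3.58.1, R 4.3.3, offset 16, which shrinks differences of dim probes). A probe was kept at a detection p under 0.05 on at least 5 arrays, which left 18003. Genotypes were compared over all kept probes by lmFit and eBayes, two-sided, with Benjamini-Hochberg adjustment and genotype as the single term. Precision is limited by how many arrays there are. The code was tested on simulated data with known changes.

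The members and lists were chosen with earlier results of these data known, so lists got counts and medians and no test. Every member was named, with up to 4 genes of each further list by smallest p and the 3 most abundant genes of each marker list. S100a8, S100a9, Krt18, Cd247, Cd2, Cd4 and Pmvk were added after their values were seen. Alternatives were the replicate number as a block, background correction, scaling, the authors' values, the filter, the variance model, array weights, the mean over the probes of a gene and leaving out each array. Replicates 1 to 5 alone were added after seeing the data. No slide or scan batch was named in the labels or headers.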

Additional observations from a re-analysis of the deposited data

Results flagged for a closer look

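Of 50 groups of values (the 24 member genes and the second Fdps probe, each in both genotypes), 1 held a sample far from the others, where chance gives about 1 in 20. Scap had 8.68 in Il23r knockout sample 4, and the nearest of the other knockout samples was at 8.57.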

How the results depend on the processing

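The count of member genes past the threshold was 0 under each of the 10 other settings and in each of the 11 fits that left out 1 array. The sterol median ranged from -0.11 to -0.05 over the settings and from -0.14 to -0.05 with any single array omitted. The fatty acid median changed sign, from -0.06 to 0.07 over the settings and -0.06 to 0.02 with any single array omitted. The Fdps probe stayed positive in every fit that tested it (0.17 to 0.52), but the count of member probes was 0 on the authors' log2 values, with equal medians, without background correction, without the filter on dim probes, with a trended variance, with replicates 1 to 5 alone and with the filter at all 11 arrays, which removes that probe. It was 1 with array weights, and 0 to 1 when 1 array was left out. The count of further genes of the metabolism was 0 with equal medians and without the filter, and 0 to 1 when 1 array was left out.

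With the replicate number as a block, 264 of all tested probes were called, 0 of the member probes and 1 further gene, Dgat2 (0.97, adjusted p = 0.0309), while Acadl missed the threshold (-0.76, adjusted p = 0.0575). Same-numbered samples correlated at -0.01 to 0.26 in their deviations, and 1 of 5 knockout samples correlated best with its own number. Median raw intensity was similar in same-numbered samples. It was 176.7, 164, 124.4, 130.7 and 117.5 in knockout samples 1 to 5, against 165.3, 156.7, 128.4, 131.7 and 107.6 in WT samples 1 to 5. What a number stands for is not in the labels. The main fit did not take the numbers as pairs, and a shared recipient or handling was not tested. Over all tested probes 320 were called, 210 without the filter, and 157 to 507 with any single array omitted. Of these 320, 65.6% were higher in knockout cells, and of the 257 probes called with equal medians 77.4% were. Dim probes near background, such as those of Sc5d, Fads2, Dgat2 and the second Fdps probe, limit what can be read. The causes were not tested.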

Other observations

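Genes that make or bind oxysterols, the oxidised forms of cholesterol, were measured as well. Of 8 listed genes 5 were tested and 0 passed in limma, also at an unadjusted p under 0.05. Gpr183, the receptor by which lymphocytes follow oxysterols, averaged 12.60 ± 0.06 (SD, n = 5) in Il23r knockout and 12.64 ± 0.18 (SD, n = 6) in WT cells. Hsd3b7, an enzyme that removes its ligand, was at 0.34 ± 0.20 (SE), and at 0.11 to 0.39 over the other settings. Its probe is dim, with 5.25 and 5.38 in WT samples 4 and 6 and 5.42 in knockout sample 5. On those arrays the lowest values above background were 5.82, 5.75 and 5.78. The oxysterol-binding protein genes Osbp and Osbpl3 were at -0.15 ± 0.10 (SE) and -0.14 ± 0.09 (SE).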
